A study of Rattus norvegicus with 12 samples.

Results

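Cytosolic ribosomal protein genes were followed in the bladder of ageing rats, with and without long-term food restriction. They were taken as all genes named Rpl or Rps with a number, together with Rpsa, Rplp0, Rplp1 and Rplp2, and a gene counted where the 4 arrays of 1 or more groups all showed a probe clearly over background. By this rule 78 genes were followed among the 20425 genes and unnamed transcripts measured: 31 of the small subunit, 44 of the large subunit and 3 of the stalk. Of the 228 symbols that match the rule in the RefSeq gene table, 148 had no probe named through RefSeq and were not analysed here, and 2 had a probe that was well above background on 0 of 12 arrays. Those 2 were Rpl27l2 and Rpl3l, the paralog of Rpl3 known from striated muscle. Of the 78 genes, 77 were well above background on all 12 arrays and 75 lay in the brightest 25% of all features.

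RNA came from the bladder body of 12 male Fischer 344 rats, 1 animal on each 1-colour array. There were 4 young rats of 6 months that ate freely, 4 old rats of 25 to 28 months that ate freely, and 4 old rats of 25 to 28 months that had been given food on 3 days a week from 6 weeks of age. The labels put the intake of the last group about 40% below that of the old freely fed rats. The young and the old freely fed animals shared 1 slide, in different array rows, while restricted animals were on another slide read in another scan, so restriction and slide cannot be told apart, nor can age and array row. Arrays correlated at r = 0.981 to 0.997 across features, and 0 spots were saturated. A level is the log2 signal of a probe minus the log2 of its array's 75th percentile, and the number of arrays limits their precision. Bladder body is whole tissue, so a change in the number of cells of a type and a change in RNA per cell cannot be told apart.

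The cytosolic ribosome is built from ribosomal RNA and ribosomal proteins, most of which are made in equal numbers and are needed by every cell. Messenger RNAs of ribosomal proteins open with a terminal oligopyrimidine tract, a C followed by a run of C and T in the gene, through which the mTOR pathway and the RNA-binding protein Larp1 set their translation and stability. Food restriction is known to lower mTOR activity, which acts on the translation of these messages, so a level of RNA as measured here does not read that step. Ribosomal protein genes also have many near-identical copies in mammalian genomes, and a probe can bind the transcript of a copy as well as that of the gene it is named for, so the value of each gene is uncertain to that extent.

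The start sites of the genes are shown because the tract is the feature they are known to share. RefSeq promoter windows of the GRCr8 build were matched by symbol to 62 of the 78 genes, and the other 16 had no entry or more than 1. In 41 bases centred on the start, on the gene's own strand, a C followed by at least 6 pyrimidines was found in 45 of 58 genes that are not copies or paralogs (77.6%), against 18% of all 33469 windows, and in 1 of 4 copies and paralogs. The windows below, 20 bases before to 20 bases after the start base, carry that run in capitals, and windows without one are in lower case throughout. They belong to a stalk protein, to 4 genes whose values are discussed further on and to both members of 4 pairs of parent gene and copy or paralog.
Rplp0: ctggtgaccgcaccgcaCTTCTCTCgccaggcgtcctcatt
Rps27: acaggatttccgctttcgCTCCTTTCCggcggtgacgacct
Rps21: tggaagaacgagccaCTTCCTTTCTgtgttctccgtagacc
Rpl35a: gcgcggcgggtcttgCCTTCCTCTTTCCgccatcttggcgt
Rps19: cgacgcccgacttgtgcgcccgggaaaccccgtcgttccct
Rpl22: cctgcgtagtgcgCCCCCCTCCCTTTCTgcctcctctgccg
Rpl22l1: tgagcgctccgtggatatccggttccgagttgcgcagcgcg
Rpl39: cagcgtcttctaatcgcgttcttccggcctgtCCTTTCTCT
Rpl39l1: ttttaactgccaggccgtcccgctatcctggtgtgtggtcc
Rps4x: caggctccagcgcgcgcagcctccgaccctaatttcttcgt
Rps4y2: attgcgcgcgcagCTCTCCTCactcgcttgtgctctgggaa
Rps12: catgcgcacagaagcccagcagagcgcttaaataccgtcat
Rps12l4: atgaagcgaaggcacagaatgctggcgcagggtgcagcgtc

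In GRCr8 these windows lie at chr12:46718370-46718410 on the minus strand for Rplp0, chr2:177964586-177964626 on the minus strand for Rps27, chr3:187724018-187724058 on the plus strand for Rps21 and chr11:81235001-81235041 on the minus strand for Rpl35a. Those of the pairs lie at chr5:168117941-168117981 on the plus strand for Rpl22, chr2:113683176-113683216 on the plus strand for Rpl22l1, chrX:121195876-121195916 on the minus strand for Rpl39 and chr10:5966601-5966641 on the minus strand for Rpl39l1. The others lie at chr1:89608668-89608708 on the plus strand for Rps19, chrX:71342901-71342941 on the minus strand for Rps4x, chr4:183000893-183000933 on the plus strand for Rps4y2, chr1:23500055-23500095 on the plus strand for Rps12 and chr7:25007009-25007049 on the minus strand for Rps12l4. The run was 8 bases in Rplp0, 9 in Rps27 and 13 in Rpl35a, and Rps19 had none. In 2 of the 4 pairs, Rpl22 with Rpl22l1 and Rpl39 with Rpl39l1, the parent's window alone held a run. Rps4x had none while its paralog Rps4y2 had one of 8 bases, and neither Rps12 nor Rps12l4 had one. In 57.8% of promoter windows the start base was that of the RefSeq gene table. A window without a run therefore does not show that the message lacks the tract. The hexamer CTTTCC, which overlaps such runs, was present on the gene's strand in 29.3% of the 58 windows and in 1.77% of all windows. In the full promoter windows of 300 bases, searched on both strands, CCGGAAG (an Ets-type motif) was found in 31% of the 58 genes against 8.75% of all genes, GGGCGG (a GC box) in 56.9% against 33.1%, and TATAAA in 10.3% against 14.2%. These are matches of letters, and no binding was measured.

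The 78 genes varied little between animals. The range over 12 arrays had a median of 0.32 on the log2 scale, against 0.5 over all features and 0.34 over the brightest 25%, and it was under 1 for 76 of the 78 genes. The other two were Rpl39l1, a dim probe with a range of 5.33, and Rps27, whose brightest probe was low on 1 array. The mean level over the 78 genes was 5.36, 5.44, 5.36 and 5.62 in young replicates 1 to 4. It was 5.32, 5.33, 5.36 and 5.38 in old freely fed replicates 1 to 4, and 5.45, 5.39, 5.35 and 5.40 in old restricted replicates 1 to 4. Young replicate 4 stood above every other animal and all 3 groups overlapped. That animal held the highest value of the 12 for 75 of the 78 genes, and its array had the lowest 75th percentile signal, 3993 against 4123 to 4892 on the others. With quantile scaling it was highest for 10 genes.

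**Figure D1:**
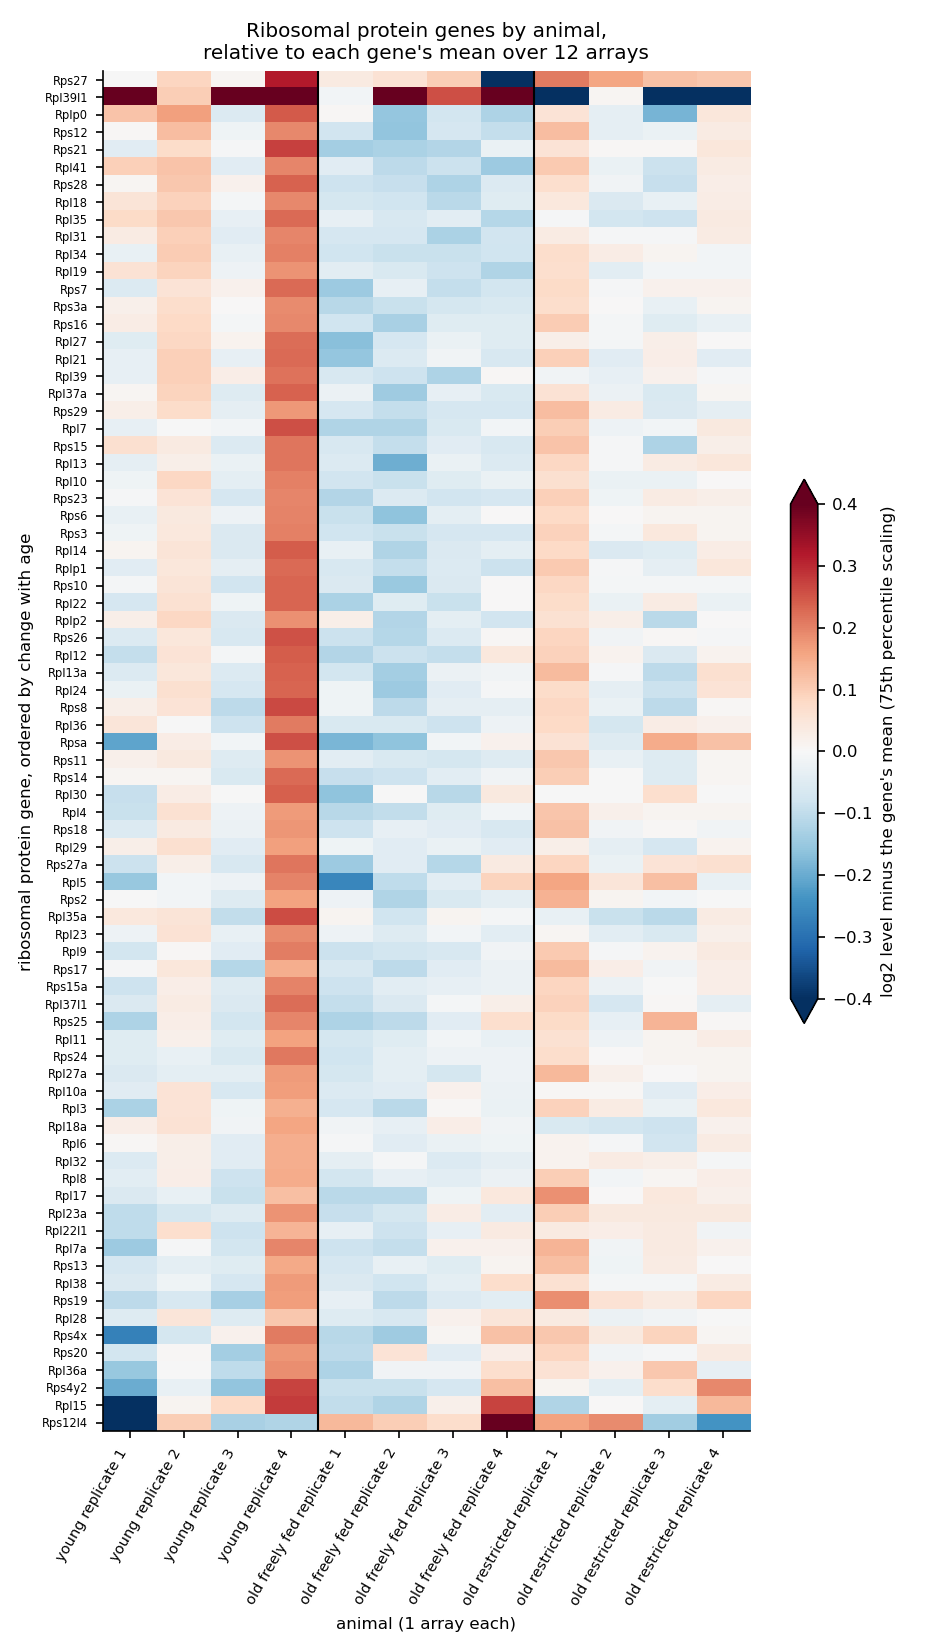
Level of each of the 78 ribosomal protein genes (rows, ordered by change with age) in each of 12 animals (columns, 1 array each), as log2 level minus the gene's own mean, with colours capped at 0.4. Young replicate 4 is high for 75 of the 78 genes, and Rpl39l1, Rps27, Rps12l4 and Rpl15 are the rows that reach the ends of the colour scale.

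The share of an array's summed signal that the 78 genes took needs no scaling between arrays. It was 7.42%, 7.76%, 7.58% and 8.21% in the young rats, 7.57%, 7.53%, 7.71% and 7.69% in the old freely fed rats and 8.08%, 7.84%, 7.79% and 7.84% in the old restricted rats. The means were 7.74% ± 0.341, 7.63% ± 0.0913 and 7.89% ± 0.133 (SD, n = 4). Restricted and freely fed old animals did not overlap in this share, while the young animals spanned both groups. Under quantile scaling the means of the log2 levels were 5.38 ± 0.06, 5.40 ± 0.03 and 5.40 ± 0.01 (SD, n = 4), and the 3 groups overlapped.

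**Figure D2:**
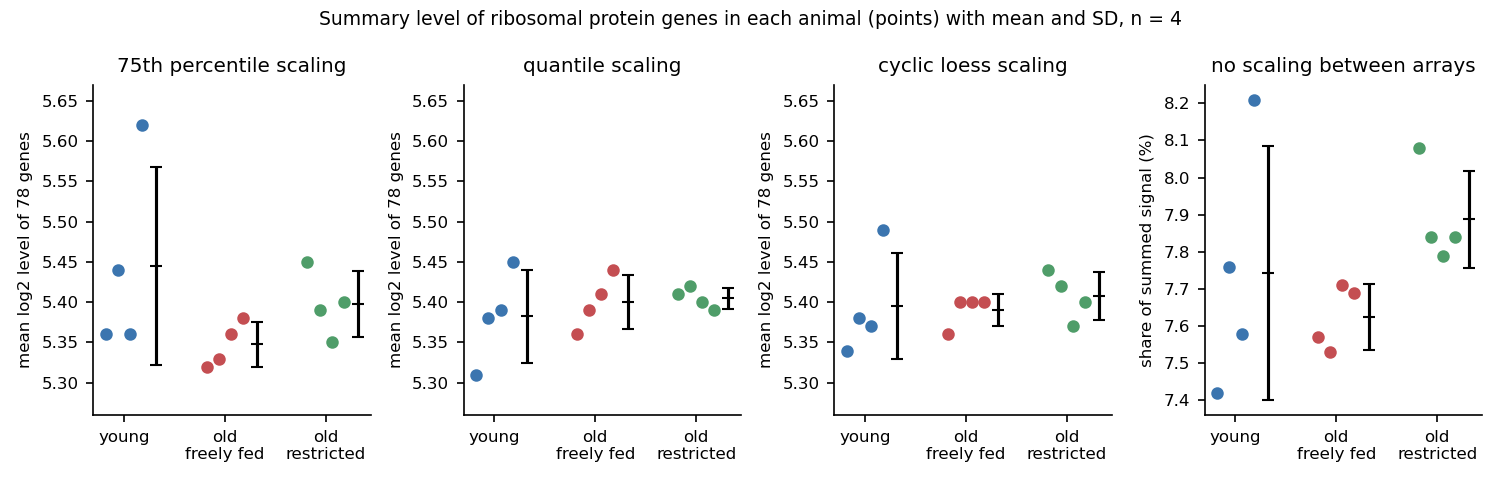
Mean log2 level of the 78 genes in each animal under 3 scalings, and their share of the summed signal of the array in percent (last panel), with group mean and SD (n = 4). Young replicate 4 is highest with 75th percentile scaling at 5.62 and in the share at 8.21%, and the group means of quantile-scaled levels lie between 5.38 and 5.40.

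The first comparison asked what age does in freely fed rats. Ribosomal protein genes had values slightly below those of young animals, and 0 of 78 passed the test (limma, Benjamini-Hochberg adjusted over all features, smallest adjusted p = 0.07), while 3.72% of all features did. At an unadjusted p under 0.05, 21 were lower and 1 was higher. Of all 20425 features 3333 were lower and 1699 higher in that way, and of the 5107 in the brightest 25% 1257 and 240. The change was below 0 for 76 of the 78 genes, with a median of -0.10 on the log2 scale and a range of -0.35 to 0.35. Over all features the median was -0.05 with 62% below 0, and over the brightest 25% it was -0.07 with 74.3% below 0. Old and young animals did not overlap for 12 genes, all lower, against 9.37% of all features lower and 5.69% higher in that way. Of the 5107 features in the brightest 25%, 659 were lower and 167 higher without overlap. The 95% interval of the change lay within 1.2-fold either way for 61 of the 78 genes.

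The sign of this shift depended on the scaling, and its size also on 1 animal. Quantile scaling gives every array the same set of values, and 75 of the 78 genes lie in the brightest 25%. It can therefore remove a shift that these genes share, in any comparison, and cannot decide whether there was one. Rpl41, for example, spanned 6.89 to 7.23 over the arrays with 75th percentile scaling and 6.98 to 7.04 with quantile scaling. With quantile scaling 23 of the 78 genes were below 0 and the median was 0.02, with cyclic loess 44 were below 0 and the median was -0.01, and with median centring 73 were below 0 and the median was -0.10. At an unadjusted p under 0.05, quantile scaling gave 11 genes higher and 0 lower, and cyclic loess 2 higher and 3 lower. Of all 20425 features, 2241 were higher and 2157 lower with quantile scaling, and 2686 and 2205 with cyclic loess. The groups did not overlap for 9 genes higher and 1 lower with quantile scaling, against 7.51% and 5.42% of all features. Without young replicate 4 the median was -0.04 with 61 below 0. The 3 subunit classes had like medians under 75th percentile scaling, -0.10 for 31 small subunit genes, -0.09 for 44 large subunit genes and -0.12 for 3 stalk genes.

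The stalk proteins Rplp0, Rplp1 and Rplp2 stand out from the large subunit and call translation factors to the ribosome. Rplp0 levels were 6.93, 6.98, 6.76 and 7.06 in young, 6.82, 6.66, 6.74 and 6.69 in old freely fed and 6.87, 6.78, 6.63 and 6.86 in old restricted rats, and all 3 groups overlapped. Its change with age was -0.20 (SE 0.07, adjusted p = 0.12 by limma), and -0.03 under quantile scaling. A second Rplp0 probe, nearly as bright, read 6.84, 6.87, 6.70 and 6.95 in young rats. It read 6.76, 6.78, 6.71 and 6.66 in old freely fed and 6.83, 6.70, 6.83 and 6.77 in old restricted rats. Rplp1 was 6.10, 6.19, 6.11 and 6.37 in young, 6.08, 6.05, 6.09 and 6.06 in old freely fed and 6.25, 6.14, 6.11 and 6.19 in restricted rats. Old freely fed animals lay below both other groups, but its changes, -0.12 with age and 0.10 with restriction, did not pass (limma adjusted p = 0.22 and 0.33). For Rplp2 the changes were -0.11 and 0.05.

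Rpl5 and Rpl11 bind 5S ribosomal RNA and, when ribosome assembly is disturbed, the ubiquitin ligase Mdm2. Rpl5 levels were 4.87, 5.01, 5.0 and 5.22 in young, 4.76, 4.92, 4.98 and 5.11 in old freely fed and 5.18, 5.07, 5.14 and 4.99 in restricted rats, with overlap between all groups. Its change was -0.08 with age and 0.15 with restriction (SE 0.08 for both, limma adjusted p = 0.57 and 0.33). Rpl11 had smaller differences, -0.06 and 0.06, with adjusted p = 0.47 and 0.50 by limma. Rps6, the small subunit protein that S6 kinases phosphorylate downstream of mTOR, had levels of 5.79, 5.86, 5.80 and 6.02 in young, 5.73, 5.66, 5.78 and 5.82 in old freely fed and 5.90, 5.82, 5.83 and 5.83 in restricted rats. Values of old freely fed rats reached from below to within those of the other groups, and the changes of -0.12 with age and 0.10 with restriction did not pass (limma adjusted p = 0.20 and 0.35).

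Rpl13a, Rpl32, Rps18 and Rps29 are often used as reference genes for quantitative PCR. Their changes with age were -0.11, -0.05, -0.09 and -0.13, and with restriction in old rats 0.08, 0.05, 0.08 and 0.09, none past the test (limma adjusted p from 0.15 to 0.56). The largest of these 8 changes had a 95% interval of -0.25 to -0.02 (Rps29 with age). Under quantile scaling the 4 differences with age were 0.03, 0.07, 0.03 and 0.01, the other sign. Rps29 was 6.62, 6.67, 6.56 and 6.77 in young, 6.53, 6.50, 6.53 and 6.53 in old freely fed and 6.72, 6.63, 6.54 and 6.56 in restricted rats, so that old freely fed animals lay below both other groups. Rps3, at the entry of the messenger RNA channel, lay lower in old than in young animals without overlap, with a change of -0.12 (adjusted p = 0.20 by limma). Rpsa, also known as the laminin receptor precursor, and Rps27a, made as a fusion with ubiquitin, differed with age by -0.10 and -0.09 (limma adjusted p = 0.51 and 0.43).

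The gene with the smallest adjusted p for age, chosen after its values were seen, was Rpl18 of the large subunit. It was 5.63, 5.67, 5.57 and 5.77 in young and 5.51, 5.50, 5.47 and 5.53 in old freely fed rats, with no overlap. The change was -0.16 (SE 0.05, limma adjusted p = 0.07) and -0.05 under quantile scaling.

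**Figure D3:**
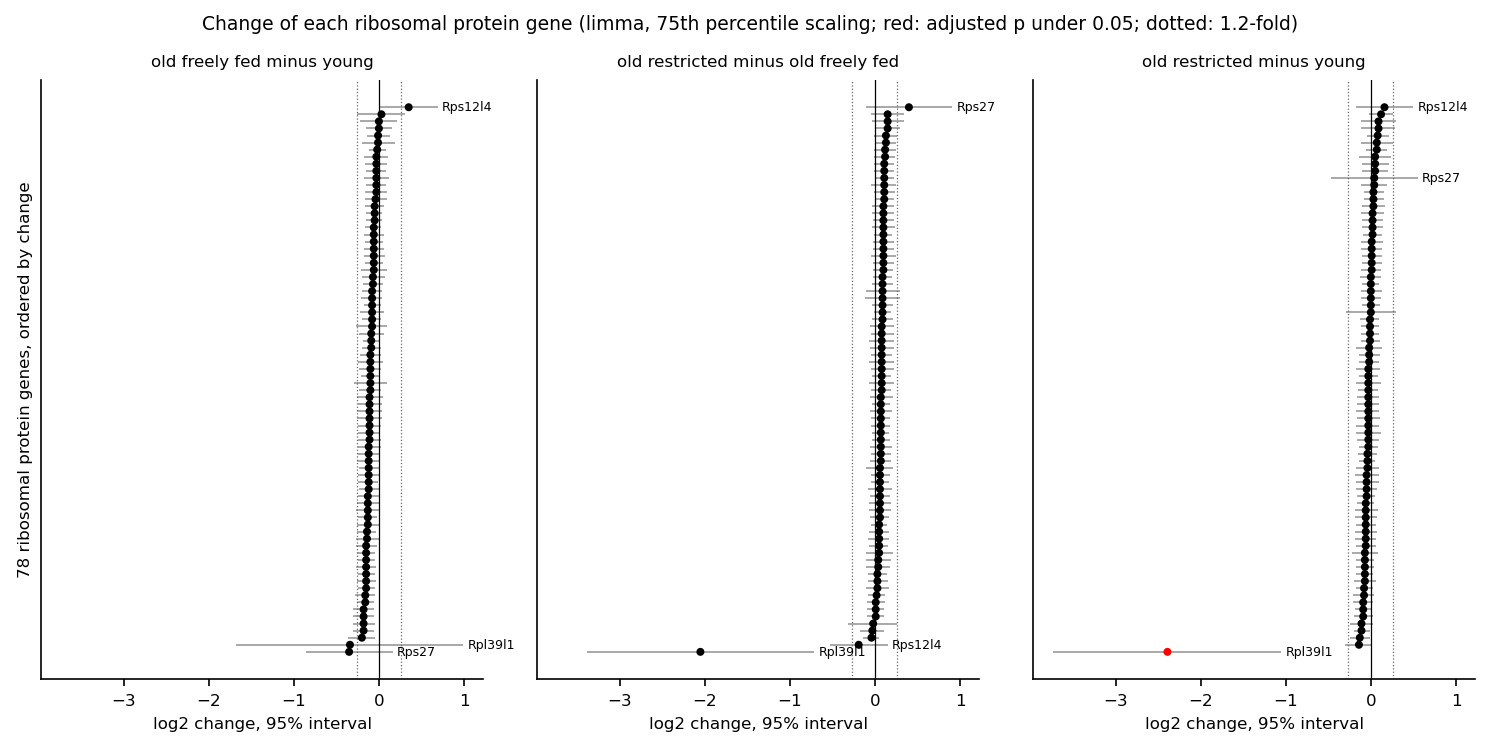
Log2 change of each of the 78 genes (points) with its 95% interval in the 3 comparisons, ordered within each panel, with dotted lines at 1.2-fold. With age 76 of 78 points lie below 0 and with restriction in old rats 73 lie above 0, and the 1 gene past the test, in red, is Rpl39l1 between restricted old and young rats.

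The second comparison set restricted against freely fed old rats. Ribosomal protein genes had values slightly above those of freely fed animals, and again 0 of 78 passed the test (limma, smallest adjusted p = 0.091), against 3.64% of all features. At an unadjusted p under 0.05, 3 were higher and 1 was lower, against 2340 higher and 1870 lower of all 20425 features. The change was above 0 for 73 of the 78 genes, with a median of 0.08 against 0.02 over all features and 0.03 over the brightest 25%. Restricted animals lay above freely fed ones without overlap for 25 genes and below them for 0, against 8.64% of all features higher and 6.05% lower. The 95% interval was within 1.2-fold for 69 of the 78 genes. Among the 25 were 14 small subunit, 10 large subunit and 1 stalk gene.

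Under other scalings the median of this shift kept its sign. It was 0.09 with median centring, 0.05 with cyclic loess and 0.03 with quantile scaling, with 73, 68 and 60 genes above 0. In the same order, the medians were 0.04, 0 and 0.02 over all features and 0.04, 0 and 0.01 over the brightest 25%. The 25 genes without overlap became 14 with median centring and 13 with cyclic loess, against 1700 and 1308 of all 20425 features higher. With quantile scaling the 25 genes became 3 higher and 4 lower, against 7.5% and 6.08% of all features. The comparison shares its freely fed old animals with that of age, so the opposite signs of the 2 medians are not independent. All restricted animals lay on the second slide.

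**Figure D4:**
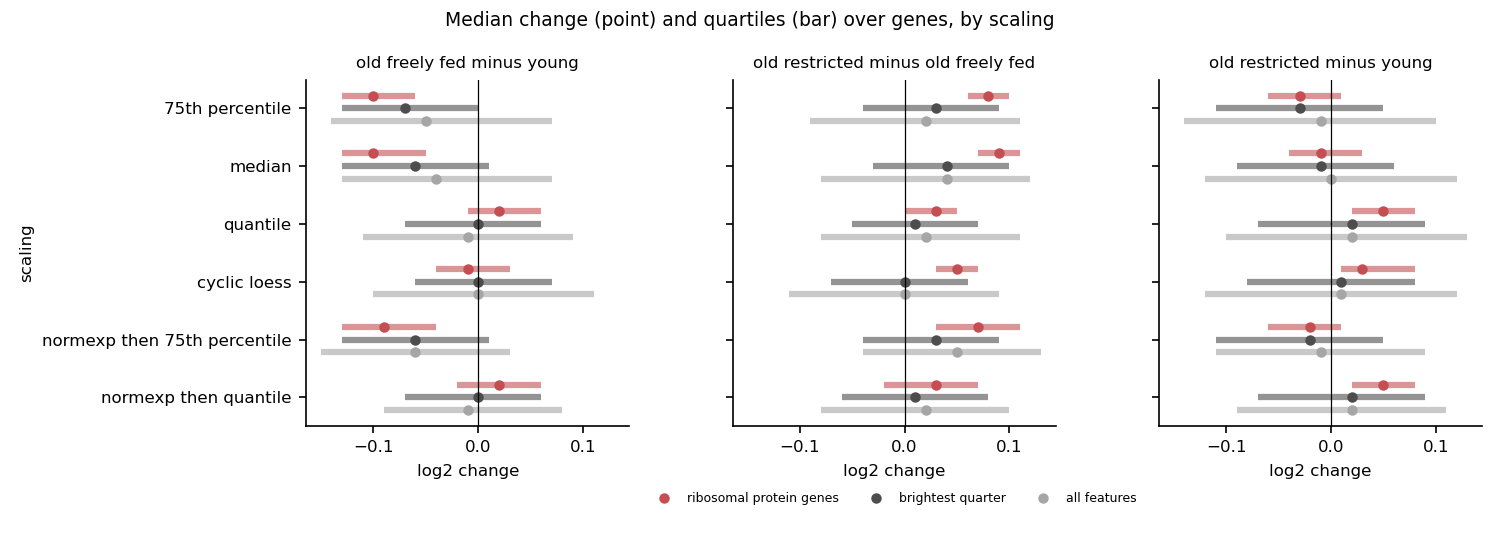
Median (point) and quartiles (bar) of the log2 change over the 78 ribosomal protein genes, the brightest 25% of features and all features, for 6 scalings in each comparison. With age the median of the ribosomal protein genes is -0.10 with 75th percentile scaling and 0.02 with quantile scaling, while with restriction in old rats it is 0.03 to 0.09.

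The third comparison set restricted old against young rats. Here 1 of 78 genes passed the test, Rpl39l1, which was lower, against 9.18% of all features called. Its dim probe met the background filter through the freely fed groups alone. The median change of the 78 genes was -0.03 with 50 below 0, the median over all features was -0.01, and for 71 genes the 95% interval was within 1.2-fold. The groups did not overlap for 1 gene, lower, against 10.8% of all features lower and 7.16% higher. Without young replicate 4 the median was 0.03 with 25 genes below 0. With quantile scaling it was 0.05 with 66 genes above 0, and with cyclic loess 0.03 with 61 above 0. Quantile scaling left 10 genes higher and 2 lower without overlap, against 10.3% and 8.59% of all features.

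Rpl39l1 is a copy of Rpl39, a small protein that lines the tunnel through which the new peptide leaves the ribosome; RefSeq lists Rpl39l as its synonym. Its single probe had 1 spot per array and was dim. It read -6.07, -6.72, -6.15 and -4.70 in young, -6.83, -5.71, -6.56 and -5.91 in old freely fed and -8.56, -6.81, -10.02 and -7.79 in old restricted rats. Restricted animals lay below every young one, and 1 of them, replicate 2, lay among the old freely fed animals. The spot was well above background on 4 of 4 arrays of each freely fed group and on 1 of 4 arrays of restricted rats. The gene was thus kept through the freely fed groups alone, so the filter itself favoured a lower value in restricted rats. The change from young to restricted was -2.39 (SE 0.61, adjusted p = 0.035 by limma), and that from freely fed to restricted old rats was -2.05 (SE 0.61, limma adjusted p = 0.091).

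Because most restricted arrays give a limit only, a bound was set with 75th percentile scaling, by which Rpl39l1 was 2.81-fold lower in restricted than in young rats. It is no minimum under other processing, since normexp correction gave a smaller change (-0.62). The bound also makes no allowance for background levels that differ between groups, or for a filter that favoured a lower value in restricted rats. For this bound, an array on which the spot was dim was given the detection limit, the dimmest level that passed as above background there, which lay between -7.73 and -7.46. Against old freely fed rats the same bound was 2.21-fold lower. Negative control spots, scaled in the same way, averaged -9.18 to -8.94 on the arrays of young, -10.45 to -9.97 on those of old freely fed and -9.81 to -9.54 on those of restricted rats, and their part in this result was not tested. The call was lost when young replicate 1, 3 or 4 or restricted replicate 1 or 3 was left out (adjusted p 0.056 to 0.077), and with normexp background correction, which gave -0.62 (limma adjusted p = 0.081).

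Rpl39 itself is measured by 2 probes, and neither carried this difference. Its brighter probe read 5.59, 5.72, 5.65 and 5.84 in young, 5.56, 5.54, 5.50 and 5.63 in old freely fed and 5.61, 5.59, 5.64 and 5.62 in restricted rats. The groups overlapped, and its change from young to restricted was -0.09 (SE 0.05, limma adjusted p = 0.32).

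The other copies and paralogs differed less between groups, with the exception of Rps12l4. Rpl22l1, a paralog of the RNA-binding protein Rpl22, read 3.62, 3.79, 3.64 and 3.86 in young, 3.69, 3.64, 3.69 and 3.76 in old freely fed and 3.76, 3.75, 3.76 and 3.71 in restricted rats. Its change with age was -0.03 and that of Rpl22 was -0.11 (limma adjusted p = 0.73 and 0.28). Rps4y2 and the X-linked Rps4x had differences with age of 0.00 and -0.01, and with restriction of 0.09 each (limma adjusted p from 0.59 to 0.98). Rpl10 and Rpl3, whose paralogs Rpl10l and Rpl3l are not among the genes followed, had differences with age of -0.12 and -0.06 (limma adjusted p = 0.19 and 0.51). For Rpl7 the differences were -0.13 with age and 0.10 with restriction (limma adjusted p = 0.22 and 0.37).

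Rps12l4, a copy of the small subunit gene Rps12 chosen after its values were seen, was the highest change with age. Its dim probe read -6.47, -5.83, -6.06 and -6.05 in young, -5.80, -5.83, -5.86 and -5.51 in old freely fed and -5.77, -5.74, -6.07 and -6.17 in restricted rats, with overlap throughout. The change with age was 0.35 (SE 0.16, limma adjusted p = 0.19). For Rps12 the difference had the other sign, -0.18 (limma adjusted p = 0.086).

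Rps27, a small subunit protein with a zinc finger, showed the lowest change with age, and 1 spot carried it. Its brightest probe read 6.18, 6.27, 6.19 and 6.50 in young, 6.22, 6.24, 6.28 and 4.99 in old freely fed and 6.39, 6.34, 6.30 and 6.29 in restricted rats. Old freely fed replicate 4 was far below the other 11 animals, and the scanner software had marked this spot, the probe's only one, as non-uniform. A second Rps27 probe read 6.02 in that animal and 5.92, 6.01 and 5.97 in the other 3 of its group. With the brightest probe the changes were -0.35 with age and 0.40 with restriction (SE 0.23 for both, limma adjusted p = 0.37 and 0.36). With the marked spot left out they were -0.04 and 0.08, and with the second probe -0.06 and 0.08. Over the 47 genes with more than 1 kept probe, the changes of the brightest and the second probe differed by a median of 0.05 with age, and Rps27 had the largest gap, 0.29.

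**Figure D5:**
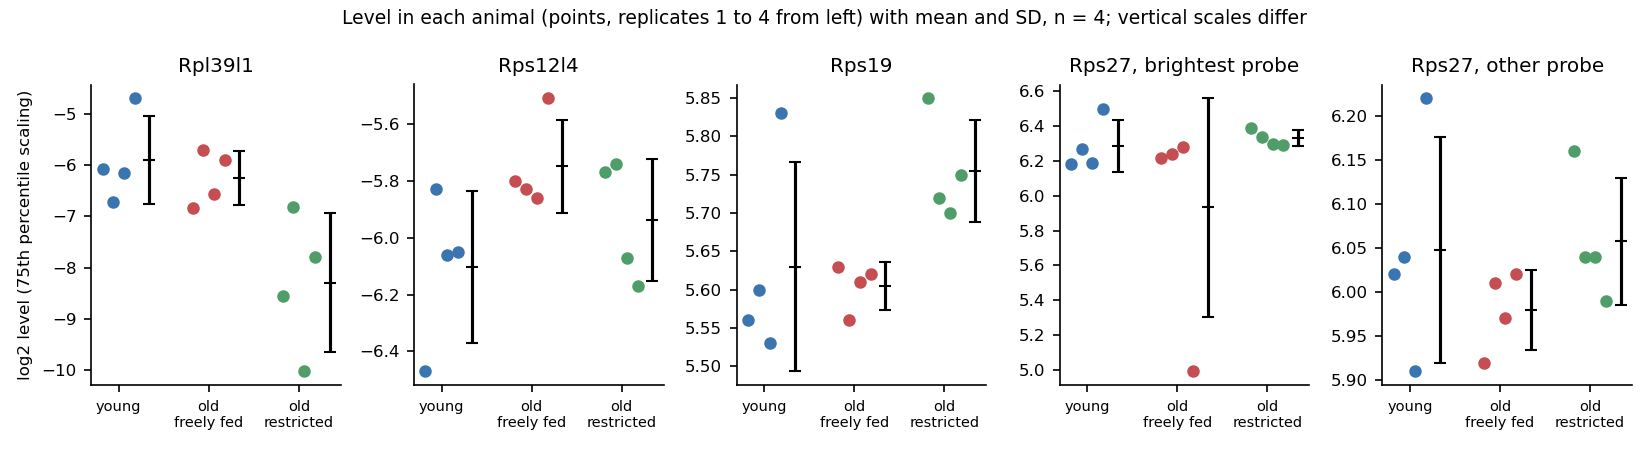
Log2 level in each animal (points, replicates 1 to 4 from left) with group mean and SD (n = 4) for Rpl39l1, Rps12l4, Rps19 and both probes of Rps27, each panel on its own vertical scale. Restricted animals lie below all young ones for Rpl39l1, and the low value of 4.99 in old freely fed replicate 4 is absent from the second probe of Rps27.

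A few genes passed the test under another scaling alone, and they were chosen for that after their values were seen. Rps19, the small subunit gene most often mutated in Diamond-Blackfan anaemia, read 5.56, 5.60, 5.53 and 5.83 in young, 5.63, 5.56, 5.61 and 5.62 in old freely fed and 5.85, 5.72, 5.70 and 5.75 in restricted rats. Restricted animals lay above all old freely fed animals and above 3 of 4 young ones, young replicate 4 being the exception. The change from young to restricted was 0.12 (SE 0.06, limma adjusted p = 0.25). It was 0.17 with quantile scaling (limma adjusted p = 0.014), 0.18 with cyclic loess (limma adjusted p = 0.024) and 0.19 without young replicate 4 (limma adjusted p = 0.028). Quantile-scaled Rps19 levels were 5.53, 5.57, 5.55 and 5.65 in young and 5.80, 5.73, 5.75 and 5.72 in restricted rats, with no overlap.

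With quantile scaling Rpl17 and Rpl8, both of the large subunit, were also higher in restricted old than in young rats, by 0.16 and 0.10 (limma adjusted p = 0.042 and 0.041). In that comparison 8.36% of all features passed with quantile scaling and 9.8% with cyclic loess. With 75th percentile scaling these differences were 0.08 and 0.02 (limma adjusted p = 0.42 and 0.83). After normexp correction and quantile scaling, Rps21 was higher by 0.13 and Rpl35a lower (-0.13) in restricted than in freely fed old rats (limma adjusted p = 0.044 and 0.017), where 4.89% of all features passed. With 75th percentile scaling the differences were 0.13 for Rps21 and -0.03 for Rpl35a (limma adjusted p = 0.26 and 0.81).

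Genes that act with the ribosomal proteins were read from the same fit. Among 19 translation factors and other genes known to open with the same tract, 0 passed with age or with restriction, and 1 was lower in restricted old than in young rats, Btf3, a subunit of the nascent polypeptide-associated complex (-0.22, limma adjusted p = 0.038). Btf3 did not pass under quantile scaling (limma adjusted p = 0.072). The medians of these 19 were -0.04 with age, 0.02 with restriction and 0.00 between restricted and young. Of 3 other cytosolic ribosomal parts 0 passed in any comparison, with medians of -0.08, 0.05 and -0.04. Among 28 initiation and elongation factors 2 were lower with age: Eif3b, a scaffold subunit of initiation factor eIF3 (-0.24, limma adjusted p = 0.025), and Eif2b4, part of the exchange factor for eIF2 (-0.20, limma adjusted p = 0.04). Under quantile scaling Eif3b passed and Eif2b4 did not (limma adjusted p = 0.049 and 0.096). Eif3b was higher with restriction in old rats (0.19, limma adjusted p = 0.048, but 0.068 under quantile scaling), and Eif3j was lower in restricted old than in young rats (-0.24, limma adjusted p = 0.028). The medians of these 28 were -0.08, 0.05 and -0.04.

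Of 38 genes of ribosome assembly and the nucleolus, 0 passed with age or with restriction, and Nop10, a part of the pseudouridine-forming particles, was lower in restricted old than in young rats (-0.17, limma adjusted p = 0.035, but 0.11 under quantile scaling). Their medians were -0.04, 0.06 and 0.02. Among 23 genes of the mTOR pathway and of tract control, 0 passed with age and 2 were higher with restriction: Rheb, the GTPase that activates mTOR (0.17, limma adjusted p = 0.029), and Eif4ebp2, a repressor of cap-dependent initiation that mTOR inactivates (0.27, limma adjusted p = 0.049). Rheb was 1.77 ± 0.02 in restricted and 1.60 ± 0.05 in freely fed old rats (SD, n = 4), with no overlap. In restricted old against young rats Eif4ebp2 and Sesn2, a stress-induced inhibitor of mTOR, were higher (0.25 and 0.39, limma adjusted p = 0.044 and 0.038). The medians of these 23 were -0.04, 0.04 and 0.00. Under quantile scaling Eif4ebp2 with restriction in old rats was 0.26 and did not pass (limma adjusted p = 0.063), while Rheb did (limma adjusted p = 0.02).

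Among 66 mitochondrial ribosomal proteins, which belong to the separate ribosome of that organelle, 0 passed with age or with restriction and 3 were lower in restricted old than in young rats. Mrpl58 and Mrpl55 had changes of -0.15 and -0.20 (limma adjusted p = 0.027 and 0.045), and under quantile scaling 0 of the 3 passed. The medians of these 66 were -0.07, 0.01 and -0.07. Of 12 genes of translation surveillance and the Mdm2 pathway, 0 passed with age or with restriction, and Cdkn1a, an inhibitor of cyclin-dependent kinases, was lower in restricted old than in young rats (-0.34, limma adjusted p = 0.024), but did not pass under quantile scaling (limma adjusted p = 0.061). Their medians were -0.08, 0.03 and -0.02.

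The tissue label was checked with cell type markers, whose summed level is given as log2 relative to the 75th percentile. Urothelium (7.98 to 8.25) and smooth muscle (8.09 to 8.82) were high in all 12 animals, as was the fibroblast list (7.21 to 7.93). Of 7 smooth muscle markers 2 were lower with age, and 0 of 7 were called under quantile scaling. The summed levels of the smooth muscle markers were 8.75 to 8.82 in young and 8.09 to 8.68 in old freely fed rats. In restricted old against young rats 2 of the 7 smooth muscle markers were lower, and again 0 under quantile scaling. Of 6 fibroblast markers 1 was lower with age, and 0 under quantile scaling. Striated muscle markers were 4.46 to 5.40 in young, 3.48 to 4.68 in old freely fed and 3.67 to 4.00 in restricted rats, with 1 of 6 lower with age (0 under quantile scaling) and 3 of 6 lower in restricted old than in young rats. T and B lymphocyte markers were 0.18 to 0.61 in young, 1.10 to 1.44 in old freely fed and 0.55 to 0.91 in restricted rats, with 4 of 8 higher with age and 1 of 8 lower with restriction.

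Macrophage markers were 1.62 to 1.94 in young and 1.93 to 3.19 in old freely fed rats, with 1 of 6 higher with age. Among 8 urothelial markers 1 was higher with age, and among 4 endothelial markers 1 was lower with restriction. Of 3 prostate and seminal vesicle markers 2 were lower with age, with summed levels of -2.85 to -1.14 in young and -3.98 to -3.63 in old freely fed rats. In restricted rats they were -4.39 to -3.90, and 2 of 3 were lower than in young rats, the comparison in which Rpl39l1 passed. Further calls between restricted old and young rats were 1 of 8 urothelial markers higher, 1 of 8 lymphocyte markers higher and 1 of 4 endothelial markers lower. For plasma cell (3 markers), dividing cell (5) and germ cell (2) lists 0 were called in any comparison, and germ cell markers lay between -5.23 and -4.53. The part of these lists in the small shifts of the ribosomal protein genes and in the change of Rpl39l1 was not tested.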

How the data were processed

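The deposited values were spot intensities of 1-colour arrays, background-subtracted and detrended by Agilent Feature Extraction 10.7, per the file headers (array design 028279, genome build rn4), with no scaling between arrays. Here spots with an outlier mark were dropped wherever another spot of the probe remained, spots were averaged per probe, and the log2 of the deposited intensity minus that of the array's 75th percentile was used. Names came from RefSeq accessions matched to a GRCr8 table (17998 of 30367 probes). A probe was used if all 4 arrays of 1 or more groups showed it above background, and the brightest probe stood for a gene.

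Linear models of 3 group means were fitted to all 12 arrays with limma 3.58 in R 4.3 (eBayes with trend), two-sided, with Benjamini-Hochberg adjustment over 20425 features and a threshold of 0.05. Groups came from the labels, and p-values measure the spread between animals, pooled over the groups. Named ribosomal protein genes were those past the threshold and a fixed list of stalk, paralog, reference and 5S-binding genes, and pathway genes were up to 2 past the threshold of each of 7 pathway lists, beside 11 marker lists. Some results that this rule takes are not reported here. The members and the lists were chosen with earlier results of these data known. Alternatives were other scalings (quantile, median, cyclic loess), normexp correction (offset 50, on the median signal, since the files used here hold no mean signal), filters, probe choice, leaving out each animal and a replicate block. Replicate numbers did not pair the animals: deviations of same-numbered animals correlated at -0.19 to 0.10.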

Additional observations from a re-analysis of the deposited data

Results flagged for a closer look

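Each group of 4 animals was tested for the 23 named ribosomal protein genes, for the mean level of all 78 genes and for their share of the signal, 75 groups in all. In 5 of them 1 animal lay apart from the other 3 by Dixon's criterion, which chance meets in about 1 in 20 groups. Rps27 was 4.99 in old freely fed replicate 4, against 6.22 to 6.28 in the others of its group. Rps4y2 was 3.72 in old freely fed replicate 4, against 3.51 to 3.53. Rpl7 was 6.10 in young replicate 4, against 5.81 to 5.84. Rps6 was 5.90 in old restricted replicate 1, against 5.82 to 5.83. Rpl22l1 was 3.71 in old restricted replicate 4, against 3.75 to 3.76.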

How the results depend on the processing

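The median change with age moved to 0.02 with quantile scaling, -0.01 with cyclic loess and 0.02 with normexp and quantile scaling, and that with restriction in old rats to 0.03, 0.05 and 0.03. The number of ribosomal protein genes higher in restricted old than in young rats became 3 with quantile scaling, 1 with cyclic loess and 3 with normexp and quantile scaling. In the same order, 827, 844 and 683 of all 20425 features were higher. With normexp and quantile scaling the 3 genes were Rps19, Rpl17 and Rpl9 (0.12 for Rpl9, limma adjusted p = 0.04). With normexp and quantile scaling 1 gene was higher and 1 lower with restriction in old rats, against 420 higher and 579 lower of all 20425 features. With no filter on dim probes 2 were lower with age, Rpl18 and the otherwise unkept Rpl27l2. The 1 gene lower in restricted old than in young rats became 0 with normexp and 75th percentile scaling, with only probes above background on all arrays, and with only the 2 groups compared. With normexp and quantile scaling the 1 gene lower was Rpl35a (-0.09, limma adjusted p = 0.042), and Rpl39l1 did not pass. Leaving out 1 animal gave 0 to 1 genes lower and 0 to 1 higher in that comparison. The cause of these moves was not tested, except that the stricter filter removes Rpl39l1. With the replicate block Rpl39l1 had a limma adjusted p of 0.029 and no call on a ribosomal protein gene changed. No value reversed a called direction. No slide block could be fitted, since restricted animals had a slide of their own. Dim probes such as Rpl39l1 are limited by their signal over background. Leaving out averages that rest on outlier spots alone was added after seeing the data, as was normexp on the median signal.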
